A study of Schmidtea mediterranea with 11 samples.

Results

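Smed-pcna was followed in whole planarians of the asexual Berlin-1 strain of Schmidtea mediterranea as the transcript comp1920_c0_seq1, 1 of 26562 transcripts in the deposited table. It was taken by that identifier alone, in all 11 libraries. Adult worms were injected with double-stranded RNA on 3 consecutive days, and polyadenylated RNA of whole worms was sequenced. Smed-bruno-like was knocked down in bruli(RNAi) worms, and Smed-mbnl-1 and Smed-mbnl-like-1, -2 and -3 were knocked down together in mbnl(RNAi) worms, with 1 library for each at days 20, 25 and 30. A further library comes from Smed-H2B(RNAi) worms and a further one from Smedwi-2(RNAi) worms, both without a stated day. control(RNAi) worms received gfp double-stranded RNA, with 1 library each at days 20, 25 and 30, and the libraries without a day were set against the mean of these 3. The strain descends from a single individual, RNAi by injection reaches all tissues of the worm, and how many worms went into a library is not given in the sources used here. Nothing says that libraries of a group came from separate experiments, so p-values measure only the spread between these libraries.

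PCNA, the proliferating cell nuclear antigen, is the ring-shaped clamp that holds DNA polymerases on the template during replication, and its mRNA is made mainly by cells that are cycling. In planarians the neoblasts, the adult pluripotent stem cells, are the only somatic cells that divide, so pcna is used beside smedwi-1, a PIWI gene of neoblasts, as a neoblast marker. bruli encodes a CELF-family and the mbnl genes MBNL-family RNA-binding proteins that act on splicing. Histone H2B is needed for replicated chromatin, and its knockdown is a known means of removing neoblasts. Smedwi-2 is a PIWI protein needed by neoblasts and their progeny. In RNA of whole worms, fewer neoblasts and less pcna RNA per neoblast cannot be told apart.

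The study's primer list names pcna among the genes assayed by quantitative PCR. The pair is shown because it is the sequence by which the study itself identifies the gene. The sequences are written 5′ to 3′, with no part in capitals. They are 26 and 20 bases long, with 42.3% and 50% G+C. Their place in comp1920_c0_seq1 was not analysed here.
Smed-pcna primer 1: gtgtccttagttagtatgcttcttcg
Smed-pcna primer 2: cagcggctttcattgttagg

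Levels are given in TPM, the share of a library's transcripts after scaling by transcript length, on a scale that sums to 1000000. Every deposited value of a transcript was a whole multiple of 1 step per library, so the number of reads behind it could be recovered. The libraries held 5824313 to 9278644 such reads. Intervals in brackets are exact Poisson intervals at 95% of these reads and cover counting error only.

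Before the results, the labels were checked on the targeted genes. bruli mRNA was at 4.01% to 7.63% of the control of the day in the bruli(RNAi) libraries, and smedwi-2 was at 10.3% of the control mean in the Smedwi-2(RNAi) library. In mbnl(RNAi) libraries mbnl-1 was at 44.1% to 57.6%, mbnl-like-1 at 18.6% to 25.1% and mbnl-like-2 at 25.8% to 40.7% of the control of the day. mbnl-like-3 lay between 1.62 and 2.81 TPM in mbnl(RNAi) and between 2.03 and 3.03 TPM in control(RNAi) libraries, which overlap, at 79.8% to 104% of the control of the day. These values rest on 15, 10 and 13 reads in mbnl(RNAi) and 17, 14 and 15 in control(RNAi). A knockdown of this transcript was not seen, and so few reads could miss a partial one. The transcript of Smed-H2B is not named in the sources used here and was not checked.

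pcna nearly disappeared from bruli(RNAi) worms. It was at 5.63 TPM at day 20, 3.43 TPM at day 25 and 5.91 TPM at day 30 in bruli(RNAi) libraries, against 56.4, 55.2 and 56.9 TPM in control(RNAi) libraries of the same days. The highest bruli(RNAi) value lay far below the lowest control value, and already at day 20 the level was at 9.98% of the control of the day. These values rested on 30, 23 and 25 reads in bruli(RNAi) and on 322, 342 and 253 reads in control(RNAi). The group averaged 4.99 ± 1.36 TPM in bruli(RNAi) and 56.1 ± 0.891 TPM in control(RNAi) worms (SD, n = 3 each), an 11.2-fold lower level. On the log2(TPM+1) scale, which understates the change of low values, the difference was -3.28 (SE 0.13, 95% interval -3.58 to -2.98, adjusted p = 3.37e-06 by limma across 15492 transcripts, lower on 3 of 3 days). At this threshold 11.3% of all transcripts tested were called lower, and with a library or a day left out between 1.16% (without day 25) and 14.5%. Taken alone, 3 libraries against 3 cannot give an exact permutation p below 0.1, the value found for pcna (two-sided).

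**Figure D1:**
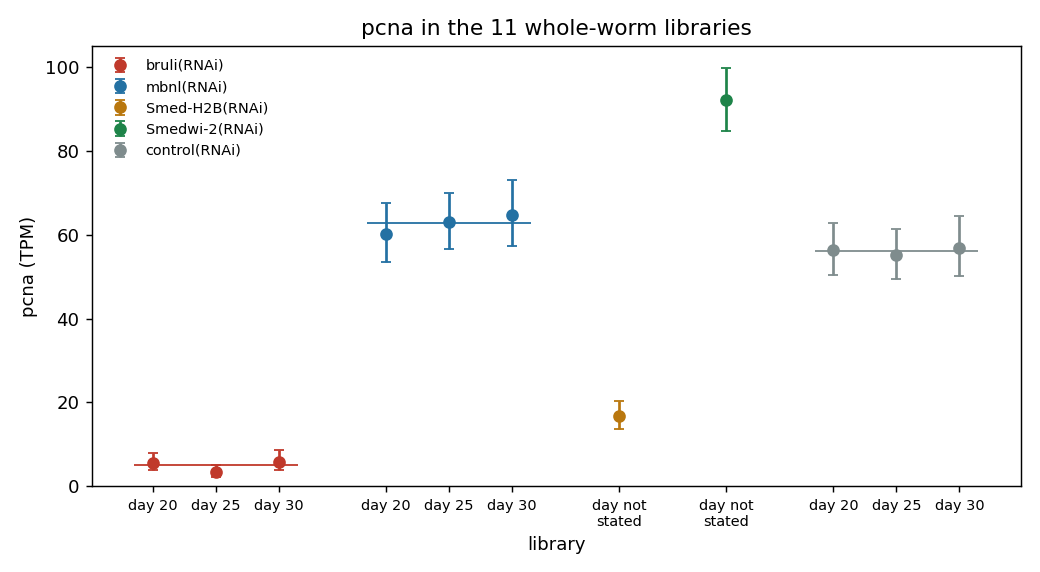
Level of pcna in TPM (vertical axis) in each of the 11 libraries, with exact 95% Poisson intervals of the recovered reads as bars and the mean of groups of 3 libraries as a horizontal line. The bruli(RNAi) libraries sit at 3.43 to 5.91 TPM, the Smed-H2B(RNAi) library at 16.7 TPM, the mbnl(RNAi) libraries at 60.2 to 64.8 TPM, the Smedwi-2(RNAi) library at 92.0 TPM and the control(RNAi) libraries at 55.2 to 56.9 TPM.

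Libraries of a group differed from each other by little more or by less than counting error. The coefficient of variation was 27.2% in bruli(RNAi), where counting alone gives 19.6%, and 3.64% in mbnl(RNAi), where counting gives 5.74%. In control(RNAi) it was 1.59%, where counting gives 5.72%. The bruli(RNAi) library of day 25 was the lowest of the 3, but its interval of 2.18 to 5.15 TPM overlapped those of day 20 (3.80 to 8.03 TPM) and day 30 (3.82 to 8.72 TPM).

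No further fall of pcna was seen between days 20 and 30. The fitted change per 5 days in bruli(RNAi) minus that in control(RNAi) was 0.02 on the log2(TPM+1) scale (SE 0.21, 95% interval -0.47 to 0.51, adjusted p = 0.981 by limma). This value turned to -0.59 without the bruli(RNAi) library of day 30, with an adjusted p = 0.741, and to 0.63 without that of day 20. No transcript passed the adjusted threshold in this test (0%), and 1513 of 15492 had an unadjusted p under 0.05 (9.77%).

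In mbnl(RNAi) worms no change of pcna passed the test. It was at 60.2, 63.0 and 64.8 TPM at days 20, 25 and 30 in mbnl(RNAi), against 56.4, 55.2 and 56.9 TPM in control(RNAi). All 3 mbnl(RNAi) values were above all 3 controls, as was the case for 20% of all transcripts tested. The mean was 62.7 ± 2.28 TPM in mbnl(RNAi) and 56.1 ± 0.891 TPM in control(RNAi) (SD, n = 3 each), and the pooled reads gave a ratio of 1.12 (exact 95% counting interval 1.02 to 1.23). limma gave a log2 difference of 0.16 (SE 0.13, 95% interval -0.14 to 0.45, adjusted p = 0.504), and 4.31% of transcripts were called higher, 667 against 261 (1.68%) called lower. The median transcript was itself 0.11 higher on this scale after mbnl knockdown, and with each library centred on its median the difference of pcna was 0.03, and the calls over all transcripts were 212 higher and 557 lower. The change per 5 days, mbnl(RNAi) minus control(RNAi), was 0.05 (SE 0.21, 95% interval -0.44 to 0.53, adjusted p = 0.983 by limma). No transcript was called in that test either (0%), with 1025 at an unadjusted p under 0.05 (6.62%).

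The fall of pcna in bruli(RNAi) was of similar size against mbnl(RNAi) as against control(RNAi), where it was -3.28. pcna was lower by a log2 difference of -3.44 in bruli(RNAi) than in mbnl(RNAi) (SE 0.13, 95% interval -3.73 to -3.14, adjusted p = 2.62e-06 by limma, lower on 3 of 3 days). In this comparison 20% of the transcripts were called lower, 3103 against 812 (5.24%) higher. With each library centred on its median these numbers were 1643 and 2169. The difference of pcna was then -3.26, beside -3.23 against control(RNAi).

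The other two knockdowns moved pcna in opposite directions. In the Smed-H2B(RNAi) library it was at 16.7 TPM (13.6 to 20.3; 102 reads), which is 29.8% of the control mean of 56.1 TPM and a log2 difference of -1.69. In the Smedwi-2(RNAi) library it was at 92.0 TPM (84.8 to 99.7; 594 reads), which is 164% of the control mean and a log2 difference of 0.70. Both intervals lie outside those of all 3 controls, which run from 49.5 to 64.3 TPM. With 1 library each and no stated day, these differences have no replicate check and no test. Of the 15492 transcripts, 32.4% were below all 3 controls in Smed-H2B(RNAi) and 36% above all 3 in Smedwi-2(RNAi), so neither direction alone sets pcna apart. In the Smed-H2B(RNAi) library pcna was 3.48-fold higher than in the pooled bruli(RNAi) libraries (exact 95% counting interval 2.57 to 4.74). In Smedwi-2(RNAi) it was 1.47-fold higher than in the pooled mbnl(RNAi) libraries (1.32 to 1.63). These ratios compare libraries, not conditions.

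From low to high, the groups stood in the order bruli(RNAi), Smed-H2B(RNAi), control(RNAi), mbnl(RNAi), Smedwi-2(RNAi), with no overlap between neighbours. The neighbours mbnl(RNAi) and control(RNAi) were not separated by the limma test, and the libraries without replicates have none. Among the transcripts tested, 59 had this same order without overlap (0.381%), pcna included. Among the 941 transcripts with about the control level of pcna it was 10 (1.06%).

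These 941 transcripts of like expression had a mean log2(TPM+1) in control(RNAi) within 0.25 of that of pcna, or 47.1 to 66.9 TPM. Their length was not matched. After bruli knockdown none of the 941 fell as much as the -3.28 of pcna over the 3 days. By day none fell as much at days 20 and 25, and 2 fell more at day 30, the lowest at -3.41, against -3.07 for pcna. Their median difference was 0.02, the 5th to 95th percentile ran from -0.56 to 0.42, and the lowest was -2.89. Of the 941, 138 (14.7%) were called lower, beside 11.3% of all transcripts tested. The transcript with the value of -2.89 is not annotated by the study, and it had 9.82, 4.58 and 4.70 TPM in bruli(RNAi) at days 20, 25 and 30, against 52.2, 51.0 and 49.9 TPM in control(RNAi). It was chosen after its values were seen.

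Among all transcripts tested, 3 fell more than pcna after bruli knockdown. They were bruli itself (-3.94), the target of the knockdown, smedwi-1 (-3.59) and the unannotated comp2548_c0_seq1 (-3.36). By day, pcna was the 3rd lowest of 15492 at day 20, the 2nd lowest at day 25 and the 14th lowest at day 30. The log scale used understates the change of low values, so a transcript of low control level could not fall as far as pcna, whatever its loss. The place of pcna over all transcripts is therefore informative only against those with a control level high enough to fall as far. On this scale the loss of pcna was thus among the deepest at each day sampled. Its change of place by day 30 rests on 1 library per day and on 23 to 30 pcna reads in bruli(RNAi), and was not tested.

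After Smed-H2B knockdown pcna was again lower than all 941 transcripts of like expression, though by a narrow margin, since the next value was -1.69 as well (-1.6882, against -1.6901 for pcna). Of all transcripts tested, 44 fell more, a count that again understates the change of transcripts of low level. After Smedwi-2 knockdown 38 of the 941 (4.04%) rose more than the 0.70 of pcna, whose place was near the 95th percentile of 0.65. After mbnl knockdown 352 of the 941 (37.4%) had a higher difference than the 0.16 of pcna, and the median was 0.10. Against its peers in level, pcna was therefore at the edge after bruli and Smed-H2B knockdown, in the upper tail after Smedwi-2 knockdown and in the middle after mbnl knockdown. The bruli and mbnl comparisons share the control libraries, as do those of Smed-H2B and Smedwi-2.

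**Figure D2:**
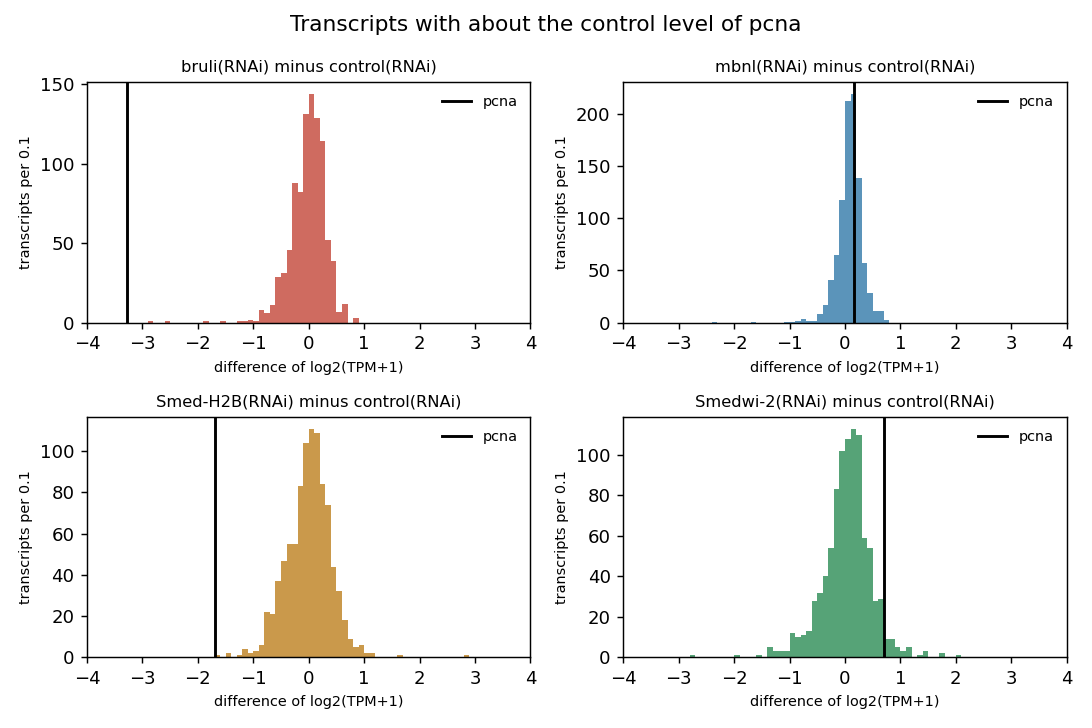
Differences of log2(TPM+1) from control(RNAi) (horizontal axis) for the 941 transcripts with about the control level of pcna, counted in steps of 0.1 (vertical axis), with pcna as a black line, in 4 panels. pcna lies below all others at -3.28 after bruli knockdown and at -1.69 after Smed-H2B knockdown, within the bulk at 0.16 after mbnl knockdown and in the upper tail at 0.70 after Smedwi-2 knockdown.

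smedwi-1 was set beside pcna because both mark neoblasts. In bruli(RNAi) worms smedwi-1 was at 26.8, 17.2 and 8.63 TPM at days 20, 25 and 30, against 193, 206 and 212 TPM in control(RNAi). As a share of the control of the day it stood at 13.9%, 8.33% and 4.07%, a step down at each day. pcna stood at 9.98%, 6.23% and 10.4% of the control of the day at the same days. pcna was thus the lower of the pair at days 20 and 25 and the higher at day 30. The limma change per 5 days of smedwi-1, bruli(RNAi) minus control(RNAi), was -0.83 (SE 0.10), which did not pass the adjusted threshold (adjusted p = 0.223), against 0.02 for pcna.

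**Figure D3:**
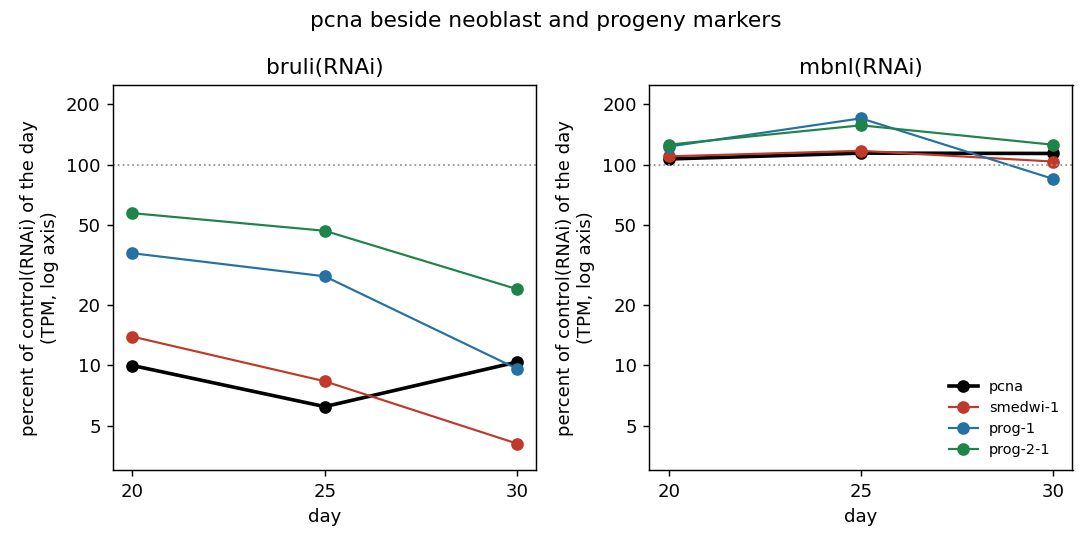
Level of pcna, smedwi-1, prog-1 and prog-2-1 as percent of the control(RNAi) library of the same day (vertical log axis) at days 20, 25 and 30 in bruli(RNAi), left, and mbnl(RNAi), right, with 1 library per point and 100% as a dotted line. After bruli knockdown pcna stays between 6.23% and 10.4%, while smedwi-1 goes down to 4.07%, prog-1 to 9.62% and prog-2-1 to 24.0%.

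The ratio of the 2 neoblast markers within a library does not depend on the library total. pcna had 7.81, 7.44 and 25.5 reads per 100 smedwi-1 reads in bruli(RNAi) at days 20, 25 and 30, against 10.9, 9.96 and 10 in control(RNAi). At days 20 and 25 the exact 95% counting intervals in bruli(RNAi), 5.20 to 11.3 and 4.65 to 11.4, overlapped those of control(RNAi), 9.67 to 12.2 and 8.89 to 11.1. In mbnl(RNAi) the ratio was 10.6, 9.70 and 10.98. It was 12.1 in Smed-H2B(RNAi) and 13.2 in Smedwi-2(RNAi). All libraries but that of bruli(RNAi) at day 30 thus lay between 7.44 and 13.2. That library rested on 25 pcna reads and 98 smedwi-1 reads, with an exact 95% counting interval of 15.7 to 39.9. Set against the bruli(RNAi) library of day 20 its ratio was 3.27-fold higher (Fisher's exact test on the reads, two-sided, adjusted p = 0.000559 over 9 pairs of days), and against that of day 25 it was 3.43-fold higher (adjusted p = 0.000559). None of the other 7 pairs of days within a group had an adjusted p below 0.469. The test compares these libraries, not days.

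Over the groups, the log2 difference between pcna and smedwi-1 was -1.53 ± 0.91 in bruli(RNAi) and -1.84 ± 0.07 in control(RNAi) (SD, n = 3 each), which the exact permutation test did not separate (difference 0.31, p = 1, two-sided, smallest possible p = 0.1). Without the bruli(RNAi) library of day 30 the difference was -0.21. At a pseudocount of 5 it was 0.67, with the smallest p this design allows (0.1). For mbnl(RNAi) it was -1.82 ± 0.09 (SD, n = 3), a difference of 0.02 from control(RNAi) (exact permutation p = 0.9). Whether pcna and smedwi-1 fell by unequal amounts after bruli knockdown could therefore not be shown with these libraries.

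**Figure D4:**
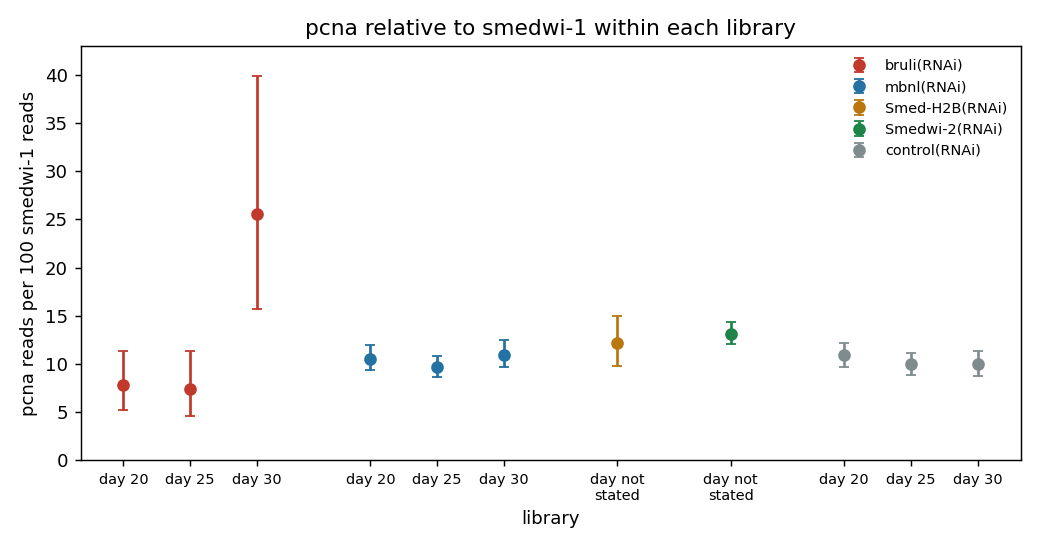
pcna reads per 100 smedwi-1 reads (vertical axis) in each of the 11 libraries, with exact 95% counting intervals. The bruli(RNAi) library of day 30 is at 25.5, and the other 10 libraries lie between 7.44 and 13.2.

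prog-1 and prog-2-1, markers of early neoblast progeny, stood at a larger share of control than pcna at days 20 and 25. In bruli(RNAi) worms prog-1 was at 36.2%, 27.8% and 9.62% and prog-2-1 at 57.4%, 46.9% and 24.0% of the control of the day at days 20, 25 and 30. Accordingly pcna had 4.03, 4.67 and 16.3 reads per 100 prog-1 reads in bruli(RNAi), against 14.6, 20.9 and 15.1 in control(RNAi). At days 20 and 25 this ratio was below that of every control, and at day 30 it was within their range. Per 100 prog-2-1 reads pcna had 0.79, 0.69 and 2.21 reads in bruli(RNAi), against 4.52, 5.18 and 5.11 in control(RNAi), below every control at all 3 days. The differences over all 3 days were -2.21 (SE 0.29, adjusted p = 0.0022 by limma) for prog-1 and -1.32 (SE 0.22, adjusted p = 0.00474) for prog-2-1. In Smed-H2B(RNAi), prog-1 was at 25.1% and prog-2-1 at 37.6% of the control mean, beside 29.8% for pcna. In Smedwi-2(RNAi), where pcna was at 164%, prog-1 was at 96.4% and prog-2-1 at 156%. pcna per 100 prog-1 reads was 27.9 there, above the 14.6 to 20.9 of the controls, whereas per 100 prog-2-1 reads it was 5.17, within the 4.52 to 5.18 of the controls.

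Transcripts with a pattern like that of pcna were sought over 8 log2 differences, bruli(RNAi) and mbnl(RNAi) against the control of days 20, 25 and 30 and Smed-H2B(RNAi) and Smedwi-2(RNAi) against the control mean. Distance was the root mean square of the differences from pcna, and its median over the 15491 other transcripts was 2.15. The nearest were comp2548_c0_seq1 at 0.28 and comp3708_c0_seq1 at 0.34, neither annotated by the study. comp2548_c0_seq1 had differences of -3.57, -3.17 and -3.32 at the 3 days after bruli knockdown, -1.52 after Smed-H2B knockdown and 0.65 after Smedwi-2 knockdown. Those of comp3708_c0_seq1 were -2.59, -3.04, -3.09, -2.05 and 0.50. Across the 11 libraries, in each of which the transcripts share 1 total, their Pearson correlations with pcna were 0.96 and 0.99. Of the 15491 other transcripts, 82 had an r over 0.95. smedwi-1 was the 7th nearest transcript, at 0.54 (r = 0.97).

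**Figure D5:**
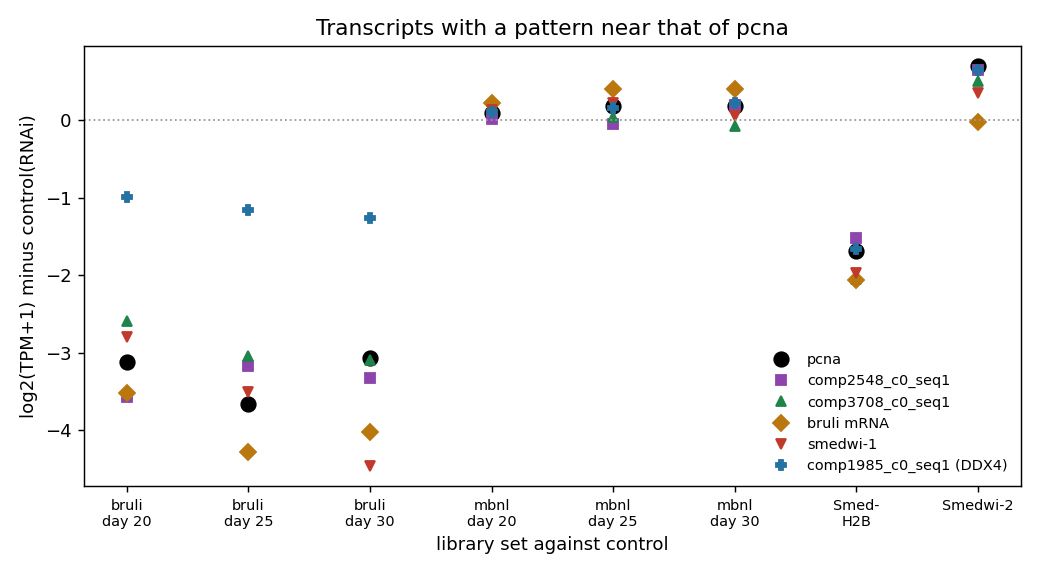
Difference of log2(TPM+1) from control(RNAi) (vertical axis) in 8 library comparisons (horizontal axis) for pcna, the 2 nearest transcripts, bruli mRNA, smedwi-1 and the DDX4-like comp1985_c0_seq1. After bruli knockdown the first 5 lie between -2.59 and -4.47, whereas comp1985_c0_seq1 lies between -0.99 and -1.26. bruli mRNA is the target of that knockdown.

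Among the 337 annotated transcripts tested, the 10 nearest were bruli (0.53, r = 0.99), smedwi-1, and then, after a wide gap, 8 transcripts at 1.29 to 1.498. Of these, comp1258_c0_seq1, with the PIWI gene PIWIL1 as its best human hit, was at 1.29 (r = 0.97), and comp1985_c0_seq1, whose best human hit is the vasa helicase DDX4, was at 1.33 (r = 0.88). The remainder were the DDX55-like helicase comp15229_c0_seq1 at 1.46 (r = 0.86), the SNRPA-like comp2444_c0_seq1 at 1.498 (r = 0.93) and 4 core spliceosome transcripts, comp2656_c0_seq1 (1.39), comp1928_c0_seq1 (1.43), comp4747_c0_seq1 (1.49) and comp6062_c0_seq1 (1.497). Ranked by r over the 11 libraries in place of distance, 3 of these 10 were again among the 10 nearest. As the target of the knockdown, bruli mRNA was low in the bruli(RNAi) libraries by design, so its nearness to pcna in these libraries is no sign of a shared pattern. In Smed-H2B(RNAi), where bruli was not targeted, bruli mRNA also fell, with a log2 difference of -2.05 beside -1.69 for pcna. It differed from pcna in Smedwi-2(RNAi), with a log2 difference of -0.02 there, against 0.70 for pcna.

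Lists of the study's annotated genes set pcna beside RNA-binding proteins enriched in neoblasts or in differentiated cells, and beside core spliceosome proteins. They do not stand for neoblast transcripts at large. The neoblast list holds 17 transcripts of RNA-binding proteins enriched in sorted neoblasts. Of these, 15 passed the filter on low values and 14 were lower after bruli knockdown, with 0 higher, beside 11.3% of all transcripts. The 14 include bruli itself, the target of the knockdown, whose fall is set by the treatment. Without the libraries of day 25 the 14 became 6, beside 1.16% of all transcripts. Without those of day 30 they became 8, beside 2.62%. Their median log2 difference was -0.87, against 0.00 over all transcripts, and 2 of the 15 fell more than pcna, bruli and smedwi-1. The next were comp1258_c0_seq1 at -1.25 (SE 0.08, adjusted p = 9.51e-05 by limma), comp1985_c0_seq1 at -1.14 (SE 0.08) and comp15229_c0_seq1 at -1.09 (SE 0.25). After Smed-H2B knockdown 14 of the 15 were below all 3 controls (median -0.87), beside 32.4% of all transcripts, and 2 fell more than pcna. After Smedwi-2 knockdown 11 were above and 2 below all 3 controls (median 0.31), beside 36% and 32.4% of all transcripts, and none reached the 0.70 of pcna. After mbnl knockdown 0 of the 15 were called, beside 4.31% higher and 1.68% lower over all transcripts, so this count does not set the list apart.

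Of 77 core spliceosome transcripts, 54 were lower after bruli knockdown and 0 higher (6 lower without the libraries of day 25, 20 without those of day 30, 30 without the bruli(RNAi) library of day 25 and 35 without the control(RNAi) library of day 30), with a median of -0.45 and a lowest value of -1.09, so none approached pcna. Over all transcripts 11.3% were lower, and 1.16%, 2.62%, 4.57% and 5.68% in the fits with libraries left out, in the order given. In Smed-H2B(RNAi) 72 of the 77 were below all 3 controls (median -0.58), beside 32.4% of all transcripts. In Smedwi-2(RNAi) 42 were above and 17 below all 3 controls (median 0.15), beside 36% and 32.4% of all transcripts. The lists rest on the study's annotation, but the enrichment thresholds of the RNA-binding protein lists were set here. They were not chosen for replication, and no list of other DNA replication genes could be set up from the sources used here.

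Of 43 RNA-binding protein transcripts enriched in differentiated cells, 42 were tested, and after bruli knockdown 5 were higher and 1 was lower, beside 6.75% and 11.3% of all transcripts. The 5 became 0 without the bruli(RNAi) library of day 25 or without all libraries of day 25 or of day 30, where in the last 2 cases the 1 lower was lost too. They became 1 without the control(RNAi) library of day 25 or of day 30, 2 without the bruli(RNAi) library of day 30, and 3 without the bruli(RNAi) library of day 20 or the mbnl(RNAi) library of day 25. In these fits 0.149% (without day 25) to 6.52% (without the bruli(RNAi) library of day 20) of all transcripts were higher. Their median difference was 0.10. The largest rise was that of a DHX8-like transcript, comp12329_c0_seq1, at 0.67 (SE 0.13, adjusted p = 0.00985 by limma), and the fall that of the HDLBP-like comp553_c0_seq1 at -0.52 (SE 0.09, adjusted p = 0.00544). None of the 42 had a difference below -0.52. Whether the shift between neoblast and other RNA in the library takes part in these values was not tested.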

How the data were processed

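After adapter trimming and an in silico filter against rRNA, the authors aligned reads to the Dresden transcriptome with Bowtie2 2.1.0 and counted them with HTSeq 0.6.1p1. The submitters' processing notes also list CASAVA 1.8.2, with no role. The deposited values are TPM, 1 column per library, each summing to 1000000, and how counts became TPM is not stated. Because each transcript's deposited TPM values were whole multiples of a step, reads were recovered for 25094 transcripts seen in 2 or more libraries (largest distance from a whole number 9.47e-07, tolerance 0.002). They are the smallest such whole numbers, so reads could be a common multiple of them. PCR duplicates are not marked, so intervals cover counting error only.

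Values were analysed as log2(TPM+1), with a pseudocount of 1. Transcripts averaging above 1.5 on this scale across the 9 libraries with a day, 15492 in all, were fitted with limma 3.58.1 in R 4.3.3, with group and day as terms and a mean-variance trend, and p-values were adjusted over all of them by the Benjamini-Hochberg method at 0.05. A second model gave the change per 5 days. The day was a term because the study's own comparison is made within a day. Permutation and Fisher tests, intervals and figures used Python 3.11.15, scipy 1.17.1 and matplotlib 3.10.9. The fits were tested on simulated data with independent normal noise and no shared day effect, a simpler setting than these data.

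The named genes are pcna, the knockdown targets, smedwi-1, prog-1 and prog-2-1, the 2 nearest transcripts of all and the 10 nearest annotated ones, and up to 5 members of each list with the largest bruli change past the test. Lists are the study's RNA-binding proteins with a log2 enrichment in neoblasts over differentiated cells of 3 or more, or of -1 or less, and its core spliceosome proteins. The members and lists were chosen with earlier results of these data known. Alternatives were pseudocounts of 0.5 and 5, other filters, quantile normalization, median centring, no trend, no day term, only the compared groups, other windows, and leaving out each library and day. limma-voom on the recovered reads was added after seeing the data.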

Additional observations from a re-analysis of the deposited data

Results flagged for a closer look

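The effect of bruli knockdown on pcna relative to smedwi-1 had a different sign at day 30 than at days 20 and 25. Only at day 30 did the counting intervals of the read ratio in bruli(RNAi) and control(RNAi) not overlap, so the direction at days 20 and 25 is not resolved. The log2(TPM+1) difference of pcna minus smedwi-1, bruli(RNAi) minus control(RNAi) of the day, was -0.31 at day 20 and 1.40 at day 30, with -0.15 at day 25. Each day has 1 library per group, so the difference between days was not tested over replicates. The Fisher's exact tests on the reads given above compare the libraries only. In the bruli(RNAi) library of day 30 the nearest transcripts comp2548_c0_seq1 and comp3708_c0_seq1 were at -3.32 and -3.09, beside -3.07 for pcna and -4.47 for smedwi-1. Both were chosen for nearness to pcna over differences that include this one, so their values here are no separate evidence. The transcripts ranked 3, 4 and 5 in nearness were at -3.16, -3.22 and -3.99. prog-1 was at -3.34 and prog-2-1 at -2.06 in the same library. It held 6146906 recovered reads, beside 7313699 and 9278644 in the bruli(RNAi) libraries of days 20 and 25, and the part of depth in the result was not tested.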

How the results depend on the processing

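The fall of pcna after bruli knockdown passed the threshold under all 23 alternatives run, with log2 differences from -3.55 (limma-voom on recovered reads, added after seeing the data) to -2.62 (pseudocount of 5). That against mbnl(RNAi) also passed under all 23, from -3.70 to -2.77. The difference of mbnl(RNAi) from control(RNAi) passed under none of 23 and ranged from 0.03 to 0.24, with adjusted p of 0.244 to 0.941 by limma. Without the day as a replicate block the 3 differences of pcna were -3.28, 0.16 and -3.44, with no call of pcna changed. Over all transcripts the calls after mbnl knockdown went from 667 higher and 261 lower to 211 and 140. Libraries of the same day and different groups had a mean correlation of 0.148 after removal of the group means (-0.0118 to 0.256). Between different days it was -0.0733 (-0.216 to 0.0499), so the day pairs the libraries only weakly. The change per 5 days of pcna, bruli(RNAi) minus control(RNAi), passed under no alternative. It was -0.018 with limma-voom, and from -0.59 to 0.63 with a library left out. Without a whole day no degree of freedom was left for it, so that was not run. The change for mbnl(RNAi) minus control(RNAi) stayed between 0.01 and 0.08. Leaving out a library moved the difference of pcna minus smedwi-1 between -0.21 and 0.58 for bruli(RNAi), and between -0.023 and 0.066 for mbnl(RNAi). For bruli(RNAi) it was 0.24 and 0.67 at pseudocounts of 0.5 and 5 (exact permutation p = 1 and p = 0.1, the smallest possible).

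The Smed-H2B(RNAi) difference was -1.72 and -1.49 at pseudocounts of 0.5 and 5, and that of Smedwi-2(RNAi) was 0.67 at a pseudocount of 5 and 0.63 after quantile normalization of the 11 libraries. In a window of 0.5, which holds 1887 transcripts, the number with a lower difference than pcna was 1 after bruli, 1203 after mbnl, 2 after Smed-H2B and 1814 after Smedwi-2 knockdown. In a window of 0.1, with 369 transcripts, it was 234 after mbnl and 353 after Smedwi-2 knockdown. The shares stayed near those of the main window. The count of transcripts called over the whole table was less stable. Those lower after bruli knockdown numbered 1084 to 2105 under other settings and 178 to 2259 with a library or a day left out, beside 1758. Those higher after mbnl knockdown numbered 100 to 846 and 21 to 806, beside 667. Those lower in bruli(RNAi) than in mbnl(RNAi) numbered 1643 to 3510 and 599 to 3578, beside 3103. The cause was not tested. The counting error of pcna was 18.3% to 20.9% in a bruli(RNAi) library, which limits what can be said between their days.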
